A study of Mus musculus with 19 samples.

Results

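Cilp encodes cartilage intermediate layer protein, and its level in the left ventricle was examined in 19 male C57BL/6 mice. It is 1 of 10733 genes that passed a filter on dim signals, and it was measured by 1 of 45101 probe sets, the only one that the platform annotation pairs with Cilp (mouse gene ID 214425). The gene was chosen by its measured difference between the groups, since earlier results of these data placed it among the largest rises after banding of the aorta. Its differences between groups are therefore given as a description, with no test.

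The mice were 7 weeks old at surgery and the left ventricle, freed of the atria and the right ventricle, was taken 4 weeks later. Of them 7 had a banded aorta, which raises the pressure the ventricle ejects against, and heart failure, 7 had a banded aorta without heart failure, and 5 had sham surgery. The criterion for heart failure is not given in the labels. Each mouse gave 1 array, and the values are log2 signals, so a difference of 1 is a doubling of signal.

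CILP is a glycoprotein of the extracellular matrix first described in the middle layer of articular cartilage. Work in cartilage cells describes it as a protein that binds transforming growth factor beta and opposes the actions of that factor and of insulin-like growth factor. In the heart it is known as a secreted product of fibroblasts, the cells that lay down collagen and other matrix. The questions followed here are how Cilp stood in the 3 groups, whether it followed organ weight among mice of the same group, and which genes varied with it there.

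The 250 bases before the transcription start are shown for Cilp and for the 3 genes whose level followed it most closely within the groups, because these 4 genes varied together. They are Col16a1 (a fibril-associated collagen), Serpinf1 (pigment epithelium-derived factor, a secreted serpin) and Thbs4 (thrombospondin-4, a matricellular protein). The sequences are from RefSeq, build GRCm38.p6, 5′ to 3′ on the strand of the gene, at chr9:65264930-65265179 (+) for Cilp, chr4:130047590-130047839 (+) for Col16a1, chr11:75422624-75422873 (-) for Serpinf1 and chr13:92794819-92795068 (-) for Thbs4. Capitals mark matches, on either strand, to 4 motifs. These were the TATA box, searched as TATANAA, and the SMAD motif, searched as CAGAC. The others were the AP-1 motif, searched as TGANTCA, and the TEAD motif, searched as GGAATG.
Cilp: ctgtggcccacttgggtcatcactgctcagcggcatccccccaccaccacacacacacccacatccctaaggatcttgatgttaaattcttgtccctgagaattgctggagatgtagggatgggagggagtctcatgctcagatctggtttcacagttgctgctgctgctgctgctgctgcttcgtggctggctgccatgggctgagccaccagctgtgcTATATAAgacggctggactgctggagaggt
Col16a1: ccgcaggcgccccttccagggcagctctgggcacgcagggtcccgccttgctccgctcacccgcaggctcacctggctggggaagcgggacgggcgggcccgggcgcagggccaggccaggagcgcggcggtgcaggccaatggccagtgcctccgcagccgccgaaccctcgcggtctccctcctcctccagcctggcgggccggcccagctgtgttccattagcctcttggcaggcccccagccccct
Serpinf1: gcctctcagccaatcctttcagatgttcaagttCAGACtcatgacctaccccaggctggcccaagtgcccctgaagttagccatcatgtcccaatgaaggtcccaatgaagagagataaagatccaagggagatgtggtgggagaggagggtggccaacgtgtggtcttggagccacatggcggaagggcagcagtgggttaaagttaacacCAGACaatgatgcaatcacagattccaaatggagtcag
Thbs4: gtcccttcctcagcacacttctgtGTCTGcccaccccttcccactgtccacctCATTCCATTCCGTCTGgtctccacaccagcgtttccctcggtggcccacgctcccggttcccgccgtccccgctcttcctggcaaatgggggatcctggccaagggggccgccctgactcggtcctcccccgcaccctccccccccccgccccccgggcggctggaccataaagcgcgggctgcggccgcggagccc

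In this window Cilp held 1 match to the TATA box, from base -30 to base -24 counted from the start, and none to the other motifs. Such a match was present in 10.4% of all 32851 promoter windows of this length in the same table. Serpinf1 and Thbs4 each held 2 matches to the SMAD motif, which 42.2% of the windows hold, and Thbs4 also held 2 overlapping matches to the TEAD motif, which 12.6% hold. None of the 4 windows held the AP-1 motif (6.75% of all windows), and that of Col16a1 held no match to any motif. The 4 windows thus shared no motif among those searched.

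Cilp was high in every banded ventricle and highest, on average, in the failing ones. The log2 signal in mice 1 to 7 with heart failure was 11.94, 12.83, 11.97, 12.83, 11.77, 12.23 and 12.31. In banded mice 1 to 7 without heart failure it was 11.85, 9.60, 11.06, 11.06, 10.44, 10.63 and 11.80, and in sham mice 1 to 5 it was 8.45, 7.60, 8.12, 8.15 and 7.49. Every banded mouse lay above every sham mouse, while the banded groups met at their edges: 6 of 7 mice with heart failure lay above all mice without it, and mouse 5 with heart failure, at 11.77, lay just below mice 1 and 7 without it.

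**Figure D1:**
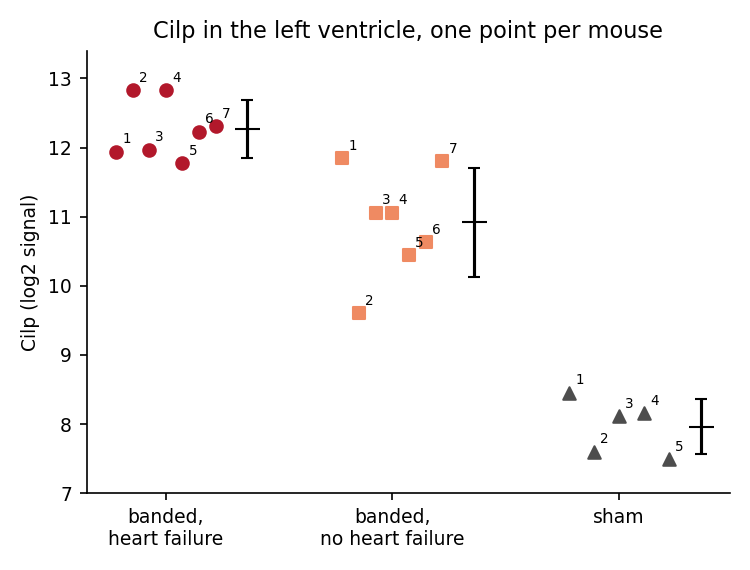
Log2 signal of Cilp (vertical axis) in each left ventricle, by group; numbers are the mice and bars show the mean and SD. All 14 banded mice lie above the sham mice, and the banded mice without heart failure spread most, from 9.60 to 11.85.

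The group means were 12.27 ± 0.43 in banded mice with heart failure (SD, n = 7), 10.92 ± 0.79 in banded mice without heart failure (n = 7) and 7.96 ± 0.40 in sham mice (n = 5). The difference was 4.31 ± 0.32 (SE) between mice with heart failure and sham mice, a 19.8-fold higher signal, and banded mice without heart failure exceeded sham mice by 2.96 ± 0.32, or 7.77-fold. Among the 10733 genes these were the second-largest and the largest rise of their comparison. Between mice with and without heart failure it was 1.35 ± 0.29, or 2.55-fold, with a rank of 22.

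Spread within a group differed as well. The highest signal was 2.09 times the lowest among mice with heart failure, 4.75 times among banded mice without heart failure and 1.95 times among sham mice, on the linear scale. Mouse 2 without heart failure was the lowest banded mouse at 9.60, and the next lowest was at 10.44.

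The titles carry animal numbers in 3 series, each with mice of all 3 groups. The labels do not say what a series stands for. In the order of the series, Cilp was higher by 4.33, 4.25 and 4.61 in mice with heart failure than in sham mice. Banded mice without heart failure were above sham mice by 2.90, 2.18 and 3.96, and mice with heart failure were above banded mice without it by 1.43, 2.07 and 0.65. The first difference was thus nearly equal in the 3 series and the others less so, with 2 or 3 mice per banded group and 1 to 3 sham mice in each. An 18S ribosomal RNA control that differed widely between arrays (5.64 to 7.62 with heart failure, 5.14 to 11.76 without and 6.25 to 10.08 in sham mice) and the actin 3' minus 5' difference, a sign of RNA quality (0.66 to 0.91, 0.67 to 0.90 and 0.94 to 1.02), had little relation to Cilp within groups (r of deviations from group means -0.02 and 0.05 over 19 mice). These r values do not show how either measure bears on the differences between groups. Every sham array had a larger actin difference than every banded array, so RNA quality and banding cannot be fully told apart.

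Fibroblast markers also differed between the groups. All 12 passed the filter, and their summed linear signal was 66334 to 85832 in mice with heart failure, 51575 to 71210 in banded mice without heart failure and 47307 to 60813 in sham mice. This sum rests largely on the bright genes Gsn and Dcn. Their mean log2 signals were 15.11 and 14.28 with heart failure, and 14.80 and 13.72 in sham mice. By limma with Benjamini-Hochberg adjustment over all genes, 10 of 12 were higher in mice with heart failure than in sham mice, 7 of 12 in banded mice without heart failure than in sham mice, and 5 of 12 in mice with than without heart failure. The share of all genes called higher was 20.4%, 10.8% and 3.83% in these comparisons, out of 39.3%, 17.4% and 9.48% called in either direction. In whole tissue, more cells of a type and more RNA per cell cannot be told apart. With the mean log2 level of these markers as a covariate, a setting chosen after the data were seen, the Cilp differences were 2.35, 1.95 and 0.40 in the same order. The part of cell makeup in them was not tested further.

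Among markers of other cells the counts were smaller. Of 12 cardiomyocyte markers Mybpc3 was higher and Ckm, Myh6, Pln, Ryr2 and Tnni3 were lower in mice with heart failure than in sham mice. Mybpc3 was also higher in banded mice without heart failure than in sham mice, and 0 were lower. Against banded mice without heart failure, Ckm and Tnni3 were lower in those with it. Of 10 endothelial markers Pecam1, Robo4 and Tie1 were higher in mice with heart failure than in sham mice, Robo4 and Tie1 in banded mice without heart failure than in sham mice, and Cdh5 was lower in mice with than without heart failure. Of 12 macrophage and leukocyte markers limma called 0 in each of the 3 comparisons, with 2, 0 and 1 at an unadjusted p under 0.05. The share of all genes called lower was 18.9%, 6.53% and 5.65%, and called higher 20.4%, 10.8% and 3.83%.

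Of 9 smooth muscle and pericyte markers, Cspg4 and Pdgfrb were higher and Abcc9 and Kcnj8 lower in mice with heart failure than in sham mice. Cspg4, Notch3 and Pdgfrb were higher and Abcc9 lower in banded mice without heart failure, and Abcc9 and Kcnj8 were lower with than without heart failure. Of 6 atrial markers past the filter, Dkk3 was higher and Kcnj3 lower in mice with heart failure than in sham mice, and Kcnj3 was lower in banded mice without heart failure. Kcnj3 and Myl7 were lower in mice with than without heart failure. The summed atrial signal varied widely in every group (882 to 44695 with heart failure, 2165 to 30881 without and 1954 to 15556 in sham mice). Of lymphocyte, epicardial, adipocyte, Schwann cell and red blood cell markers 1 or 2 of each list passed the filter, and limma called 0 of them in each comparison.

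No relation of Cilp with organ weight passed the threshold within a group. The labels give organ weights in mg, but the values are far too small for that unit, so their unit is uncertain and the indices are printed without one. A number that the labels call an ending left ventricular weight equalled, within 0.005, the labelled left ventricular weight over tibia length in mm, times 1000, and is used as the index. The labelled lung index met the same check, and the right ventricular index was computed in the same way. The left ventricular index was 8.09 to 9.75 in mice with heart failure, 6.42 to 7.59 in banded mice without heart failure and 4.82 to 5.47 in sham mice. These ranges do not overlap, so no correlation over all mice is given, and the 5 sham mice are too few for one of their own.

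Within the group with heart failure, Cilp and the left ventricular index had a negative correlation (r = -0.55, exact permutation p = 0.213; rho = -0.29, exact permutation p = 0.556; n = 7). The 2 mice at 12.83, mice 2 and 4, had indices of 8.69, the median of the group, and 8.09, its lowest. Within the banded group without heart failure the correlation was positive (r = 0.65, exact permutation p = 0.112; rho = 0.68, exact permutation p = 0.11; n = 7). Neither relation passed a threshold of 0.05 (adjusted p = 0.32 and 0.253 over 9 relations), and leaving out the 2 mice farthest from the group's median index gave r = -0.59 with heart failure and -0.05 without, so the relation without heart failure rests on mice 2 and 5. With animal series as a block r was -0.62 and 0.56; the series hold too few mice of a group for a value in each.

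**Figure D2:**
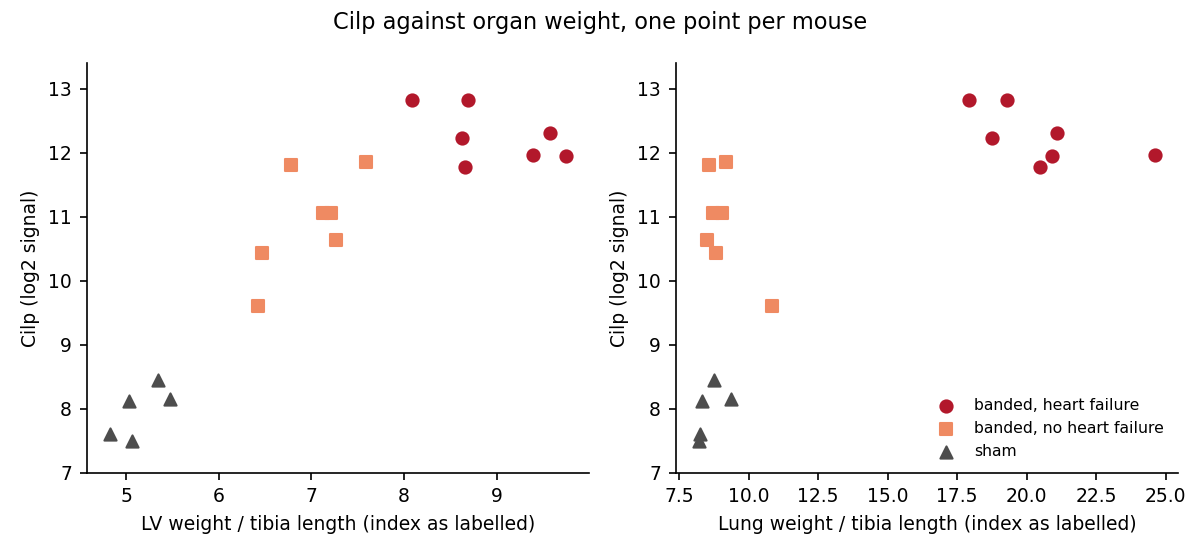
Log2 signal of Cilp (vertical axis) against the index, with no settled unit, of left ventricular weight (left) and lung weight (right) over tibia length, 1 point per mouse. With heart failure the 2 mice at 12.83 have left ventricular indices of 8.69, the median of the group, and 8.09, its lowest. Without heart failure the mouse at 9.60 has the lowest left ventricular index of its group, 6.42, and the highest lung index, 10.83.

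The difference between both groups' r for the left ventricle was -1.20 (permutation p = 0.0343 over 100000 resamples of weights within groups, two-sided, against no relation in either group), which did not pass after adjustment over the 3 organs (adjusted p = 0.103). For lung weight, r was -0.61 with heart failure (exact permutation p = 0.14, rho = -0.50 with exact permutation p = 0.267) and -0.64 without (exact permutation p = 0.138, rho = -0.11 with exact permutation p = 0.84). For right ventricular weight, r was -0.67 with heart failure (exact permutation p = 0.0982, rho = -0.71 with exact permutation p = 0.0881) and -0.23 without (exact permutation p = 0.613, rho = 0.04 with exact permutation p = 0.963). Without the 2 farthest mice, r for the lung was -0.49 and -0.17, and for the right ventricle -0.86 and -0.06, with and without heart failure. All 4 adjusted p-values were 0.253 or above. Without mouse 2, r for the lung in banded mice without heart failure was 0.33.

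Over deviations from group means in all 19 mice, r was 0.18 for the left ventricle (permutation p = 0.483; rho = 0.22, permutation p = 0.378), -0.40 for the lung (permutation p = 0.0488; rho = -0.27, permutation p = 0.28) and -0.24 for the right ventricle (permutation p = 0.299; rho = -0.17, permutation p = 0.486). The adjusted p-values were 0.543, 0.253 and 0.384, so none passed. Without the 2 mice with the most extreme weight, r was 0.46, -0.41 and -0.14.

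Several genes of collagens and other matrix proteins varied with Cilp among mice of the same group. In a limma fit with group and the Cilp level as terms, 22 of the other 10732 genes (0.205%) had a positive slope past an adjusted p of 0.05, and 0 (0.00%) a negative one. At an unadjusted p under 0.05 the counts were 443 and 195. Of the 22 genes 5 encode collagen chains, and in all 22 the correlation with Cilp was positive in each group: r was 0.43 to 0.94 with heart failure, 0.82 to 0.99 without and 0.12 to 0.89 in sham mice. Genes on the same arrays share each array's RNA and scaling, so these relations are between measurements of the same sample.

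Likeness was measured as the Pearson r of deviations from group means over 19 mice. It was highest for Col16a1 (r = 0.897, adjusted p = 0.00233 by limma for the slope), Serpinf1 (0.890, adjusted p = 0.00233) and Thbs4 (0.882, adjusted p = 0.00233), the genes whose promoters are printed above. Per unit of log2 Cilp, Thbs4 differed by 0.99, Col16a1 by 0.51 and Serpinf1 by 0.50 on the log2 scale.

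The next were Tenm3 (teneurin-3, a cell adhesion protein) with r = 0.849 and Ltbp2 with 0.844. Ltbp2 belongs by name to the latent TGF-beta binding proteins, and it binds fibrillin. Loxl3 (a lysyl oxidase, which crosslinks collagen and elastin), Col8a2 (a network collagen) and Comp (cartilage oligomeric matrix protein, a thrombospondin) each had 0.835. Col5a1, a collagen that starts fibrils, had r = 0.832. Itih5, of the inter-alpha-trypsin inhibitor heavy chains that bind hyaluronan, had 0.832. The ligand Tgfb3 had 0.823 and Fmod (fibromodulin, a small leucine-rich proteoglycan) 0.818. The adjusted p for the slope was 0.00975 to 0.0154 over these 9.

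**Figure D3:**
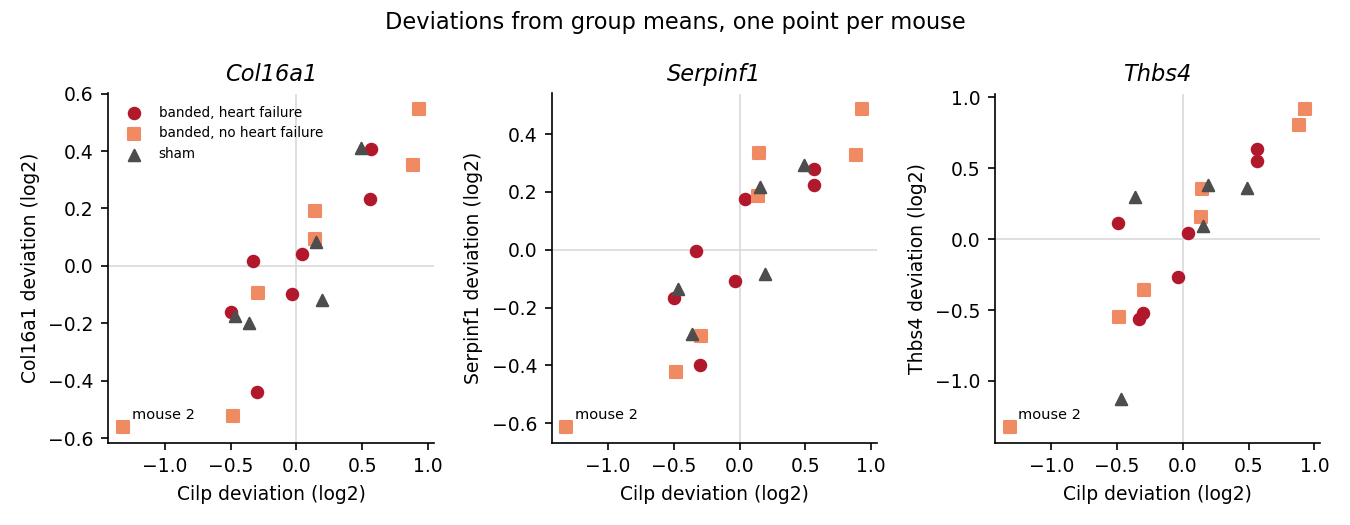
Deviation of Col16a1, Serpinf1 and Thbs4 (vertical axes) from the group mean against that of Cilp (horizontal axis), in log2 units, 1 point per mouse. Banded mouse 2 without heart failure lies at the lower left in each panel, and r over 19 mice is 0.897, 0.890 and 0.882.

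These genes also stood in the same order of groups as Cilp. Thbs4 was 11.66, 12.26 and 12.86 (lowest, median and highest) in mice with heart failure and 9.15, 10.64 and 11.40 in banded mice without heart failure, and sham mice 1 to 5 had 8.15, 8.08, 7.88, 8.17 and 6.66, so that no group overlapped another. Col16a1 was 7.22, 7.68 and 8.07 with heart failure and 6.34, 6.99 and 7.45 without, and 6.38, 5.77, 6.05, 5.85 and 5.79 in sham mice. Serpinf1 was 11.81, 12.21 and 12.49 with heart failure and 10.60, 11.40 and 11.70 without, and 10.59, 10.01, 10.52, 10.21 and 10.16 in sham mice. In Serpinf1 too the groups did not overlap, though the lowest banded and highest sham mice nearly met, whereas Col16a1 overlapped between the banded groups and, at its lower edge, with sham mice.

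Of the 22 genes, 22 were called higher by limma in mice with heart failure than in sham mice, 18 in banded mice without heart failure than in sham mice and 21 in mice with than without heart failure. Among all genes, 20.4%, 10.8% and 3.83% were called higher in these comparisons. The counts against sham mice include Cthrc1, which lay above the filter on banded arrays alone. Ltbp2 was 9.62 ± 0.24 with heart failure, 7.88 ± 0.92 without and 5.32 ± 0.81 in sham mice (SD, n = 7, 7 and 5), 3.33-fold higher with than without heart failure (limma adjusted p = 0.00629). Comp was 11.44 ± 0.28, 9.59 ± 1.18 and 7.45 ± 0.86 in the same order, 3.62-fold higher with than without heart failure (limma adjusted p = 0.0118). Fmod, at 11.74 ± 0.73, 9.94 ± 1.01 and 8.78 ± 0.98, was 3.49-fold higher (limma adjusted p = 0.0184), and did not pass in banded mice without heart failure against sham mice (limma adjusted p = 0.112). Nor did Ccdc80, Gabra3 and Map1a in that comparison, and Gabra3 did not pass with against without heart failure.

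The other genes past the threshold were Pdgfrl (r = 0.806), Map1a (0.806), Ccdc80 (0.803), Col12a1 (0.799), Mmp2 (0.792), Col6a1 (0.790), Gabra3 (0.788), Postn (0.782), Pamr1 (0.781) and Cthrc1 (0.775). Mmp2 is a gelatinase that cuts matrix proteins, Postn (periostin) a matricellular protein of activated fibroblasts, and Gabra3 a GABA receptor subunit. Gabra3 and Cthrc1, a secreted glycoprotein, were dim: Cthrc1 lay above the filter on 7 of 7 arrays with heart failure, 4 of 7 without and 0 of 5 from sham mice.

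The lowest r belonged to Mpp6, a scaffold protein (-0.759), Gpsm1, a modulator of G protein signalling (-0.740), Mavs, an adaptor of antiviral signalling (-0.726), Tppp, which binds microtubules (-0.706), Pmpca, a mitochondrial processing peptidase subunit (-0.705), and Hsd11b1, an enzyme that regenerates active glucocorticoid (-0.683). None passed the threshold for the slope (limma adjusted p = 0.111 to 0.585), though Mavs did without sham mouse 1 (r = -0.824, adjusted p = 0.0432). Their order depended on the setting. Over 29 alternative settings the weakest r was -0.262 for Mpp6, -0.355 for Gpsm1 and -0.374 for Pmpca, and -0.543 to -0.463 for the others. Of the 6, Hsd11b1 (2.30-fold, limma adjusted p = 5.38e-05), Tppp (2.23-fold, adjusted p = 7.55e-06), Gpsm1 (1.63-fold, adjusted p = 1.01e-04) and Pmpca (1.14-fold, adjusted p = 0.00885) were also lower in mice with heart failure than in sham mice. Mpp6 and Mavs did not pass there (adjusted p = 0.79 and 0.226).

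Over the 19 log2 levels, which include the differences between groups, the genes most like Cilp were Thbs4 (r = 0.984), Postn (0.978), Col8a1 (0.978), Ltbp2 (0.976) and Fxyd6 (0.974). These values rest mainly on the order of the 3 groups and are a description. Within groups Col8a1, a network collagen, had r = 0.731 and Fxyd6, a regulator of the sodium pump, 0.761, and neither passed (limma adjusted p = 0.105 and 0.0731).

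A single mouse weighed on the count. Without mouse 2 of the banded group without heart failure, 3 genes passed: Col16a1 (r = 0.877, limma adjusted p = 0.0383), Mdk, the growth factor midkine (0.852, adjusted p = 0.0383), and Serpinf1 (0.851, adjusted p = 0.0491). The r of the 12 most similar genes was then 0.723 to 0.877. Among banded mice alone 26 genes passed, 17 of them among the 22. With animal series as a block 19 passed and 16 were shared, and with the 18S control as a covariate 28 passed, including all 22.

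Within the groups the fibroblast markers also had positive correlations with Cilp. All 12 had a positive r (0.23 to 0.72, median 0.56, against a median of -1.6e-04 over all genes), 0 passed the threshold for the slope by limma (9 at an unadjusted p under 0.05), and their mean log2 level had r = 0.77 with Cilp. With that mean as a covariate, a setting chosen after the data were seen, limma called 0 genes (262 at an unadjusted p under 0.05). The r of the 12 most similar genes fell to between 0.522 (Itih5) and 0.820 (Thbs4), with a limma adjusted p of 0.28 for Thbs4 and 1 for the others. Mfap4 is counted among both the fibroblast markers and the activated fibroblast genes.

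**Figure D4:**
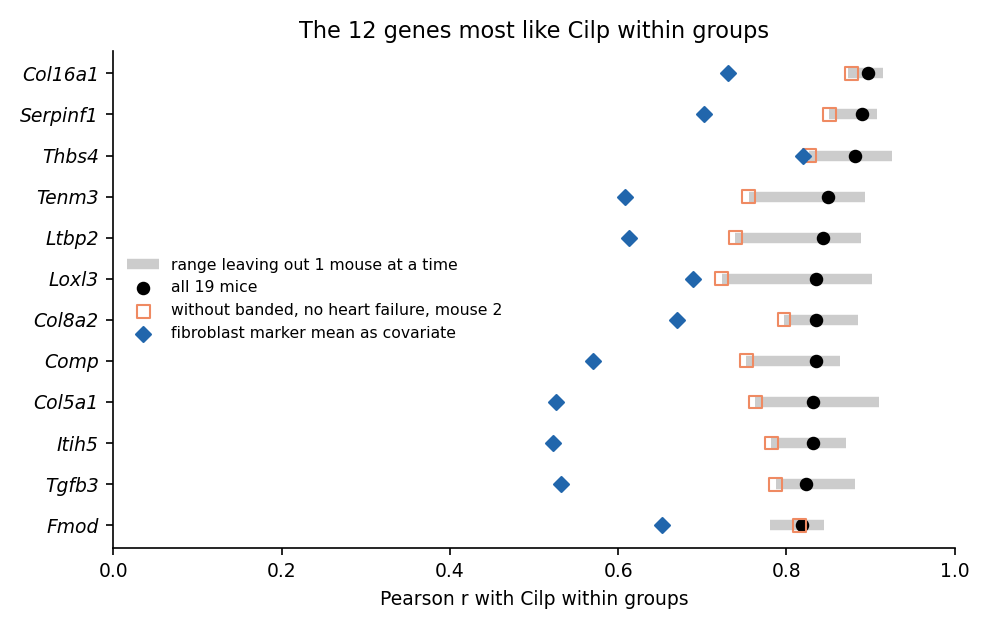
Pearson r with Cilp within groups (horizontal axis) for the 12 most similar genes over all 19 mice (black), without mouse 2 of the banded group without heart failure (open squares) and with the fibroblast marker mean as a covariate (blue diamonds); grey bars span the values with 1 mouse left out at a time. The covariate gives the lowest r for each gene, from 0.522 for Itih5 to 0.820 for Thbs4.

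Of the activated fibroblast genes, all 20 had a positive r with Cilp within groups (median 0.69) and 7 passed: Col12a1, Comp, Cthrc1, Fmod, Ltbp2, Postn and Thbs4. For this list and those below, the share of all genes that passed with a positive slope was 0.205%. All of the genes named here but Col12a1 are counted again in the lists below. Their mean log2 level had r = 0.91 with Cilp. Between the groups 18 of 20 were higher in mice with heart failure than in sham mice, 16 in banded mice without heart failure than in sham mice and 14 in mice with than without heart failure (median log2 differences 2.94, 1.61 and 1.26, against 0.0062, 0.021 and -0.015 over all genes). The share of all genes called higher was 20.4%, 10.8% and 3.83%. The 18 and the 16 include Cthrc1, which lay above the filter on banded arrays alone. Thbs4 was 21.6-fold higher with heart failure than in sham mice and 3.34-fold higher with than without heart failure (limma adjusted p = 5.82e-08 and 0.00446). With the actin difference as a covariate, a setting chosen after the data were seen, 9 were higher in banded mice without heart failure than in sham mice. Over all 10733 genes that setting called 844 higher, against 1164 in the main fit. This list and the others were chosen with earlier results of these data known, so their counts between groups are a description.

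**Figure D5:**
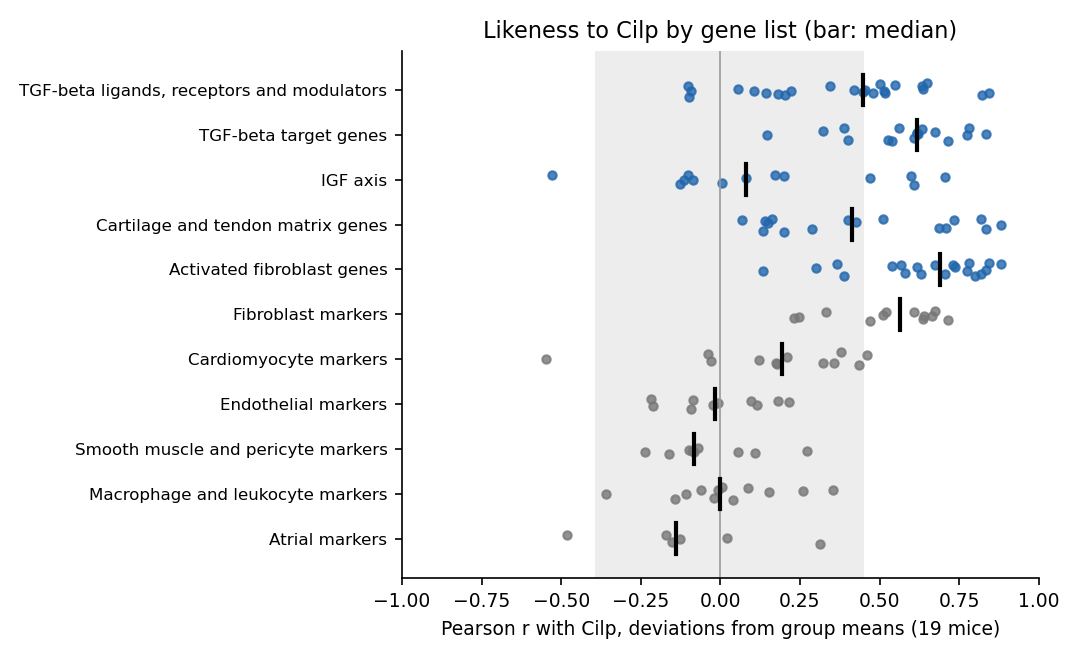
Pearson r with Cilp within groups (horizontal axis) for each member of the lists with 6 or more genes past the filter; black bars are medians and the grey band leaves out the lowest and highest 5% of all genes (-0.392 to 0.448). Medians are 0.69 for activated fibroblast genes and 0.56 for fibroblast markers, and between -0.14 and 0.19 for markers of other cells.

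The TGF-beta pathway holds the ligand that CILP is known to bind. Of 23 ligands, receptors and modulators, 20 had a positive r with Cilp within groups (median 0.45) and 2 passed, Tgfb3 and Ltbp2. Of the ligands, Tgfb3 had r = 0.823, Tgfb2 0.649 (limma adjusted p = 0.258) and Tgfb1 0.419 (adjusted p = 0.934). Tgfb1 was 8.79 ± 0.28 with heart failure, 8.92 ± 0.23 without and 8.20 ± 0.24 in sham mice, higher than in sham mice by 0.59 and 0.73 (limma adjusted p = 0.0026 and 0.00177) and -0.13 between the banded groups (adjusted p = 0.558).

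Both Tgfb2 and Tgfb3 were higher with than without heart failure. Tgfb3 was 9.69 ± 0.44, 8.996 ± 0.39 and 7.89 ± 0.23 in mice with heart failure, banded mice without and sham mice, and 1.62-fold higher with than without heart failure (limma adjusted p = 0.0274). Tgfb2 was 10.37 ± 0.31, 9.34 ± 0.43 and 7.5 ± 0.56 in the same order, 2.04-fold higher (limma adjusted p = 0.00708). In the list as a whole 14 of 23 were higher and 0 lower in mice with heart failure than in sham mice, 10 in banded mice without heart failure than in sham mice and 9 in mice with than without heart failure, against 20.4%, 10.8% and 3.83% of all genes called higher. The last count was 5 without mouse 2 or mouse 5 without heart failure, or without mouse 2 with heart failure.

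Genes known to be induced by TGF-beta were mostly higher in banded mice. All 17 past the filter had a positive r with Cilp within groups (median 0.62), and Comp, Cthrc1 and Postn passed. Against sham mice 15 were higher in mice with heart failure and 13 in banded mice without it, and 12 were higher in mice with than without heart failure, and 0 were lower. Over all genes 20.4%, 10.8% and 3.83% were called higher. The 15 and the 13 include Cthrc1, which lay above the filter on banded arrays alone, so the filter itself favoured a difference from sham mice. Its call in banded mice without heart failure against sham mice was lost in 4 of 27 alternative settings. Postn was 14.02 ± 0.23, 12.95 ± 0.60 and 11.03 ± 0.33 in mice with heart failure, banded mice without and sham mice, 2.09-fold higher with than without heart failure (limma adjusted p = 0.00568). In banded mice without heart failure against sham mice, 7 were higher without sham mouse 2 and 6 with the actin difference as a covariate. Over all 10733 genes these settings called 731 and 844 higher, against 1164 in the main fit.

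Insulin-like growth factor signals through receptors whose access its binding proteins control, and CILP is described as an opponent of it. Of 13 genes of this axis past the filter 8 had a positive r within groups (median 0.082, range -0.53 to 0.70), and 0 passed by limma (5 at an unadjusted p under 0.05). Igf1 itself had r = 0.470 (limma adjusted p = 0.81) and was 10.42 ± 0.59 with heart failure, 10.04 ± 0.24 without and 9.65 ± 0.46 in sham mice, 1.70-fold higher with heart failure than in sham mice (limma adjusted p = 0.0194, and 0.0518 without sham mouse 5). The binding protein Igfbp6 had the highest r, 0.704, and was 2.93-fold higher with heart failure than in sham mice (limma adjusted p = 1.66e-04).

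Against sham mice, 8 of the 13 were higher and 1, Igf2, lower in mice with heart failure, and 2, Igf2r and Igfbp7, higher in banded mice without it. Over all genes 20.4% were called higher and 18.9% lower with heart failure, and 10.8% higher without it, so the 2 of 13 lie near the share of all genes. Between the banded groups, where 3.83% of all genes were called higher, 3 were higher with heart failure: Igfbp3, Igfbp6 and Igfbp7. The call of Igfbp6 (limma adjusted p = 0.0417) was lost in 11 of 27 alternative settings. These counts of 2 and 3 moved between 1 and 4 and between 1 and 3 with single mice or settings. Irs2, an adaptor of the insulin receptor, was 5.77 ± 0.84 with heart failure and 4.17 ± 1.15 in sham mice (limma adjusted p = 0.0115, and 0.349 with the actin difference as a covariate), with 2 of 5 sham arrays above the filter, so no fold is given.

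Cilp is named for cartilage, but most defining cartilage genes lay under the filter. Of 32 cartilage and tendon matrix genes 16 passed it, and Acan (aggrecan), Col2a1, Col9a1, Col10a1, Col11a1, Matn1, Matn3 and Hapln1 were among those that did not. Of the 16 all had a positive r with Cilp within groups (median 0.41), and Comp, Fmod and Thbs4 passed. Against sham mice 11 were higher and 1, Cnmd, lower in mice with heart failure, and 5 higher in banded mice without it (1 with the actin difference as a covariate), and 4 (Comp, Fmod, Mgp and Thbs4) were higher in mice with than without heart failure. Over all genes 20.4%, 10.8% and 3.83% were called higher and 18.9% lower with heart failure. With the actin covariate, 844 of 10733 genes were higher in banded mice without heart failure than in sham mice, against 1164 in the main fit. The 11 include Cilp2, which passed the filter through banded arrays alone. Several of these genes stand in more than 1 list, Comp and Thbs4 among them.

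Cilp2, the related gene, stayed near the bottom of the signal range. Its signal in mice 1 to 7 with heart failure was 3.94, 6.25, 3.77, 5.10, 3.82, 4.23 and 3.94, and in banded mice without heart failure 3.93, 3.94, 3.77, 4.62, 3.94, 3.76 and 4.11. In sham mice it was 3.19, 2.90, 3.796, 3.94 and 3.79. It lay above the filter on 3, 2 and 0 arrays, so no fold and no test between the groups is given for it. Admitting a gene through banded arrays alone favours a difference from sham mice. The 2 mice with the highest Cilp2, mice 2 and 4 with heart failure, were also those with the highest Cilp, and r within groups was 0.400 (limma adjusted p = 0.946).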

How the data were processed

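The authors deposited log2 expression values made with GCRMA, per the submitters' processing notes (version not given in the sources used here), which corrects background by probe sequence and draws dim probe sets to a floor. Array medians were 2.85 to 2.99. Of 45101 probe sets 34958 had 1 symbol, 932 several and 9211 were not listed, and 34754 gene IDs were found in the reference table. Genes needed a log2 above 4 in at least 5 arrays, and the brightest probe set stood for a gene.

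Groups were compared in 1 limma fit over 19 arrays (limma 3.58.1, R 4.3.3), with Benjamini-Hochberg adjustment over 10733 genes and a threshold of 0.05. Slopes on Cilp had group and Cilp as terms. These fits were tested on simulated data. Weights were related by exact two-sided permutation of pairings (n = 7) or 100000 resamples within groups. Alternatives were other scalings, filters and probe set rules, animal series as a block, the 18S control as a covariate and leaving out each mouse, and, added after seeing the data, the actin and fibroblast covariates. Python 3.11.15 and matplotlib 3.10.9 were used. Nothing says whether mice shared a litter, so p-values measure the spread between these mice. Precision is limited by how many arrays each group has.

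The gene and the 16 lists were chosen with earlier results of these data known. Named were the 12 highest and 6 lowest r within groups, the 5 highest r of levels, in each function list the 2 members with the largest change past the threshold in mice with heart failure against sham mice, Cilp2, Tgfb1, Igf1, Comp and Postn, and marker genes where 5 or fewer passed. The other genes past the slope threshold, Mdk and members named to complete a short count were added after their values were seen.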

Additional observations from a re-analysis of the deposited data

Results flagged for a closer look

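Among 29 genes, Cilp and those named by rule, 8 of 87 groups held a mouse apart from the rest, meaning that its gap to the nearest other value, over the group's range, was past Dixon's critical value; chance gives about 1 in 20 groups. Cilp itself had none. With heart failure, mouse 5 was lowest in Col8a2 (6.14, the next at 8.05) and in Igf1 (9.15, the next at 10.36). It also had the lowest Cilp of that group. In banded mice without heart failure, mouse 4 was highest in Cilp2 (4.62, the next at 4.11). In sham mice, mouse 5 was lowest in Thbs4 (6.66, the next at 7.88), mouse 2 was lowest in Tenm3 (4.87, the next at 5.45) and highest in Mpp6 (10.56, the next at 10.43), and mouse 3 was lowest in Gpsm1 (11.55, the next at 11.89) and highest in Igf1 (10.44, the next at 9.58). Sham mouse 5 also had the lowest Cilp of its group.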

How the results depend on the processing

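With 1 mouse left out at a time, the Cilp difference ranged from 4.19 to 4.43 (heart failure against sham), 2.8 to 3.18 (banded without heart failure against sham) and 1.13 to 1.5 (with against without heart failure); scaling, animal series, 18S and actin settings moved it by less than the spread within groups. The fibroblast covariate gave 2.35, 1.95 and 0.40; the cause was not tested. No relation with left ventricular weight passed under an alternative; with 1 mouse left out r was -0.79 to -0.28 with heart failure, 0.42 to 0.88 without and -0.02 to 0.37 over deviations. The 22 genes that varied with Cilp became 10 with no filter (18193 genes tested), 0 with the fibroblast covariate, and 3 to 42 with 1 mouse left out. The count was 12, 3, 14 and 9 without mice 1, 2, 5 and 7 of the banded group without heart failure, 42, 12, 13 and 34 without mice 1, 2, 4 and 5 with heart failure, and 37 without sham mouse 3.

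Calls of the group comparisons ranged, with 1 mouse left out, from 3538 to 4388 around 4220 (heart failure against sham), 1185 to 2200 around 1865 (1185 without sham mouse 2) and 508 to 1146 around 1017 (508 and 672 without mice 5 and 6 without heart failure, 599 without mouse 2 with it). With the actin covariate they were 2705 and 1199 against sham. The balance of directions moved with scaling. It was 2193 higher and 2027 lower for heart failure against sham, and 1794 and 2586 after quantile normalising again. It was 1164 and 701 for banded without heart failure against sham, 902 and 926 after quantile normalising again and 1519 and 473 with equal medians. No paired analysis was possible because each mouse gave 1 array and the labels name no pairs of mice. No other Cilp probe set existed to try.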

Other observations

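Some r values within groups differed between the banded groups, in values picked after they were seen and with the difference not tested. Abcc9, a potassium channel regulator of pericytes and muscle, had r = 0.84 with Cilp in the 7 mice with heart failure and -0.93 in the 7 banded mice without it. Cilp2 had r = 0.88 with heart failure and 0.18 without, but it was dim, above the filter on 3 of 7 and 2 of 7 of these arrays. With heart failure, mice 2 and 4 were at 6.25 and 5.10 and the others at 3.77 to 4.23, so the 2 values of r cannot be compared.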
